A study of Mus musculus with 8 samples.

Results

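The RNA levels of 9 genes of the immunoreceptor signalling chain of osteoclasts were read in cultures with and without Elmo1. The genes are the adaptors Tyrobp and Fcer1g, the receptors Oscar, Trem2 and Siglec15, the kinases Syk, Btk and Tec, and the phospholipase Plcg2. They were chosen by name and found by Ensembl identifier, and all 9 were present among the 46517 identifiers of the series. All 9 also passed the filter on low values that left 14139 genes for testing, set at a normalized count of 10 or more in 4 or more libraries.

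Osteoclasts, the multinucleated cells that resorb bone, were grown from femoral bone marrow of mice aged 6 to 8 weeks. Differentiation took 7 days in GST-RANKL at 50 ng/ml, and 10% medium conditioned by L929 cells supplied macrophage colony-stimulating factor. The accounts of the steps differ: the sample labels have suspension cells receive both together, whereas the methods have them receive the conditioned medium first and place RANKL on adherent cells replated after 3 days. One group of 4 libraries came from Elmo1-/- mice, in which Elmo1 is deleted globally, so in every cell of the culture and of the animal. The control group of 4 libraries came from Elmo1+/- mice, which keep 1 intact copy; their titles say WT, but the genotype labels and the methods give Elmo1+/-, and there was no library without the deleted allele. The libraries carry the numbers 1 to 4 in each genotype. The methods place 2 mice of each genotype in each of 2 experiments without saying which. For the study as a whole they state that controls were littermates matched for age and sex, and that both sexes were used. The sex of the mouse behind each library is not given in the sources used here.

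Immunoreceptor tyrosine-based activation motifs (ITAMs) are short stretches of a protein with a pair of tyrosines that are phosphorylated when a partner receptor is engaged. DAP12, the protein of Tyrobp, and FcR-gamma, the protein of Fcer1g, carry the motif, while receptors such as TREM2, SIGLEC15 and OSCAR bind ligand and have none of their own. SYK docks on the phosphorylated motif, BTK and TEC help to activate phospholipase C-gamma-2, and the calcium release that follows acts together with RANK signalling to switch on NFATc1, the main transcription factor of osteoclast formation.

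The motif itself is shown because it separates the adaptors from the other 7 genes. It was read from the coding sequence of the principal transcript of each gene in GENCODE M21 (mouse GRCm38) as a codon for tyrosine, any 2 codons, a codon for leucine or isoleucine, any 6 to 8 codons, and the same 4 codons again. Capitals mark the codons of the tyrosines and of the leucines, 5′ to 3′.
Tyrobp (codons 92 to 106 of 114, exons 4 and 5, chr7:30415670-30417382, plus strand): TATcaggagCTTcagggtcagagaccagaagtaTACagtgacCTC
Fcer1g (codons 65 to 79 of 86, exons 4 and 5, chr1:171229889-171230072, minus strand): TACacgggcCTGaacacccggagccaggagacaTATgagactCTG
Each of the 45 base stretches crosses an intron, so the coordinates span more than the bases printed. The pattern was found in 2 of the 9 genes, Tyrobp and Fcer1g, and in 617 of 21523 coding genes (2.87%). None of the 76 matched genes of 4 pathway lists used further on, of receptors, kinases and inhibitors, held it.

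Promoter windows of Oscar and Trem2 are shown because these genes lay on opposite sides of the main separation of the libraries, described further on. They are RefSeq windows of 300 bases on GRCm38.p6, from 250 bases before the start of transcription to 50 after it. Capitals mark matches, on either strand, to GAGGAAG (PU.1 and other ETS factors), TGGAAA (NFAT), TGANTCA (AP-1) and CATGTG (an E-box read by MITF).
Oscar (chr7:3616108-3616407, minus strand): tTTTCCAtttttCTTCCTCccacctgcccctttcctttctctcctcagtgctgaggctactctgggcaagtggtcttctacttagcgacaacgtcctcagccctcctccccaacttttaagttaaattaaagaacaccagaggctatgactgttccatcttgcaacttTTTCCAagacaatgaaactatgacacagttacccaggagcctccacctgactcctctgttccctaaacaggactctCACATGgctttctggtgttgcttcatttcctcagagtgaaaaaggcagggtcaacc
Trem2 (chr17:48346151-48346450, plus strand): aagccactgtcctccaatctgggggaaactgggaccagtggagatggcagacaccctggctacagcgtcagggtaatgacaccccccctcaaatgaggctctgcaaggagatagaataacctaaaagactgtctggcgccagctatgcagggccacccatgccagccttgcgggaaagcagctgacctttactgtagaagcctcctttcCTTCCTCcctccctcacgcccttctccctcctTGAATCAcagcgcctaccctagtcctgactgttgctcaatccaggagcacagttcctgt
The Oscar window held TGGAAA at 249 and 82 bases before the start, GAGGAAG at 238 and CATGTG at 6, all on the opposite strand. The Trem2 window held GAGGAAG at 41 bases before the start on the opposite strand and TGANTCA at 9. Over all 32851 windows of this length, 13.6% held GAGGAAG, 21.4% TGGAAA, 7.81% TGANTCA and 14.2% CATGTG, so none of these letters is rare. In the windows of Fcer1g, Tec, Plcg2 and Syk none of the motifs was found, and that of Btk held GAGGAAG at base 9 after the start. No window of Tyrobp or Siglec15 was read. Such matches describe letters and were not tested as binding sites.

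The 8 libraries held between 20905502 and 40846651 reads on genes. Elmo1, the deleted gene, read 292 ± 17.6 (SD, n = 4) normalized counts in Elmo1-/- and 1593 ± 150 (SD, n = 4) in Elmo1+/-, a log2 fold change of -2.44 (SE 0.09), with no overlap between the genotypes (p = 0.0286 by exact permutation, two-sided, the lowest that 4 against 4 libraries can give). The libraries did not separate mainly by genotype: the first principal component, 62.3% of the variance, parted those numbered 1 and 2 from those numbered 3 and 4 in both genotypes. Between these pairs of numbers 9 of 9 osteoclast markers differed, Ctsk, Acp5 and Dcstamp among them, all higher in every library numbered 3 or 4 (18.1% of all tested genes were), with a median log2 difference of 1.18. Their summed normalized counts, mostly Mmp9, Ctsk and Acp5, were 449874 to 690636 in numbers 1 and 2 and 1026711 to 1170032 in numbers 3 and 4. Of 8 macrophage markers, 3 (Mrc1, Cd14 and Mertk) were lower in every library numbered 3 or 4 (15.8% of all tested genes were) and 0 were higher, and their sums overlapped, at 229713 to 256137 and 194003 to 242659. In such bulk libraries fewer cells of a type and less RNA per cell cannot be told apart.

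The genes stood at very different levels. Per kilobase of exon, the median level over the 8 libraries was 40409 normalized counts for Tyrobp (38622 to 56079) and 26324 for Fcer1g (23472 to 42599), above those of 99.5% and 99.4% of the tested genes. Syk had a median level of 1718 per kilobase, Trem2 1528, Plcg2 1323, Btk 1248 and Oscar 1140, whose ranges over the libraries overlapped from one to the next in this order. Tec was lower at 397 per kilobase (356 to 429), and Siglec15, at 297 (77.7 to 576), had a range that included that of Tec. The place of Trem2 depended on the length used, since its exons cover 4946 bases and its principal transcript 1088. Per kilobase of principal transcript its median level was 6948, next after both adaptors and above the 2999 of Syk.

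Neither adaptor differed between the genotypes beyond the spread of the libraries. Tyrobp (ENSMUSG00000030579, chromosome 7, 30413760 to 30417585, plus strand) had normalized counts of 37405, 26179, 26755 and 26123 in Elmo1-/- libraries 1 to 4 and 32929, 31481, 27150 and 25761 in Elmo1+/- libraries 1 to 4. Library 1 of Elmo1-/- was the highest of all, the other 3 of its genotype were nearly alike, and the genotypes overlapped. The log2 fold change of Tyrobp in Elmo1-/- relative to Elmo1+/- was -0.02 (SE 0.14, 95% interval -0.34 to 0.30). Fcer1g (ENSMUSG00000058715, chromosome 1, 171229572 to 171234365, minus strand) read 37231, 24138, 21314 and 21876 in Elmo1-/- and 31077, 29671, 21852 and 20515 in Elmo1+/- libraries 1 to 4. All 4 libraries numbered 1 and 2 lay above all 4 numbered 3 and 4, and within each pair of numbers the genotypes overlapped. Its log2 fold change by genotype was 0.0049 (SE 0.21, 95% interval -0.47 to 0.48).

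Oscar and Siglec15 varied most from library to library, and Trem2 about as much as Fcer1g. Oscar (ENSMUSG00000054594, chromosome 7, 3609813 to 3616157, minus strand), a collagen receptor that signals through FcR-gamma, had normalized counts of 1035, 1362, 2982 and 3066 in Elmo1-/- and 1809, 1693, 2473 and 2402 in Elmo1+/- libraries 1 to 4. The Elmo1-/- libraries were thus both the lowest and the highest of the 8. The log2 fold change of Oscar over all libraries was -0.12 (SE 0.35, 95% interval -0.92 to 0.67). Within numbers 1 and 2 the Elmo1-/- libraries lay below both Elmo1+/- libraries, by a log2 of -0.56, and within numbers 3 and 4 they lay above both, by 0.31. Each of these values rests on 2 libraries of each genotype, and neither passed the threshold when limma was run on those libraries alone (adjusted p = 1.00 when rounded and 0.576, over all tested genes). The difference between the pairs of numbers was not tested. Among all tested genes 2.36% were ordered in this way, 1.71% in the reverse way and 4.1% with Elmo1-/- on the same side in both pairs of numbers.

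Trem2 (ENSMUSG00000023992, chromosome 17, 48346401 to 48354147, plus strand), a lipid-binding receptor that signals through DAP12, read 11449, 8383, 6577 and 6732 normalized counts in Elmo1-/- and 9231, 8674, 6735 and 6050 in Elmo1+/- libraries 1 to 4. As for Fcer1g, the libraries numbered 1 and 2 were the higher ones in both genotypes, and the genotypes overlapped. The log2 fold change by genotype was 0.10 (SE 0.20, 95% interval -0.36 to 0.55). Siglec15 (ENSMUSG00000091055, chromosome 18, minus strand), a sialic acid-binding receptor that also signals through DAP12, read 89.9, 244, 578 and 666 normalized counts in Elmo1-/- and 154, 187, 538 and 442 in Elmo1+/- libraries 1 to 4. It had the lowest level per kilobase of the 9 and rested on 95 to 856 reads, and the highest library stood 7.41-fold above the lowest. Its log2 fold change by genotype was 0.08 (SE 0.66, 95% interval -1.42 to 1.58). With the replicate number as a block the interval of Siglec15 was -0.45 to 0.61 (SE 0.22) and that of Oscar -0.68 to 0.43.

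The kinases and the phospholipase were nearly level in all 8 libraries. Syk (ENSMUSG00000021457, chromosome 13, 52583173 to 52648792, plus strand) had normalized counts of 16149, 14561, 16014 and 16629 in Elmo1-/- and 16961, 15426, 17403 and 15953 in Elmo1+/- libraries 1 to 4, a log2 fold change of -0.05 (SE 0.08, 95% interval -0.22 to 0.12). Btk (ENSMUSG00000031264, chromosome X, 134542336 to 134583570, minus strand) read 3583, 3915, 4128 and 3942 in Elmo1-/- and 3699, 3691, 4279 and 4227 in Elmo1+/-, a log2 fold change of -0.03 (SE 0.08, 95% interval -0.21 to 0.15). Over all 8 libraries neither kinase had a genotype that stood apart, and the highest library was 1.20-fold above the lowest for Syk and 1.19-fold for Btk. Oscar was not alone in having an order within numbers 3 and 4. There both Elmo1-/- libraries also lay below both Elmo1+/- libraries for Btk, and above them for Siglec15 and Plcg2. None of these genes passed the threshold when limma was run on those libraries alone. With so few libraries of each genotype, such an order can easily arise by chance. The share of all tested genes ordered within numbers 3 and 4 alone was not computed, so nothing is read from these cases. Tec (ENSMUSG00000029217, chromosome 5, 72755716 to 72868483, minus strand) read 1482, 1334, 1410 and 1510 in Elmo1-/- and 1506, 1444, 1606 and 1492 in Elmo1+/-, a log2 fold change of -0.08 (SE 0.07, 95% interval -0.23 to 0.07). Plcg2 (ENSMUSG00000034330, chromosome 8, 117498291 to 117635142, plus strand) read 6068, 5785, 5286 and 5590 in Elmo1-/- and 5997, 5959, 5237 and 5259 in Elmo1+/-, a log2 fold change of 0.02 (SE 0.08, 95% interval -0.16 to 0.20). The intervals of these 4 genes all lay between -0.23 and 0.20, and those of the other 5 genes were wider.

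**Figure D1:**
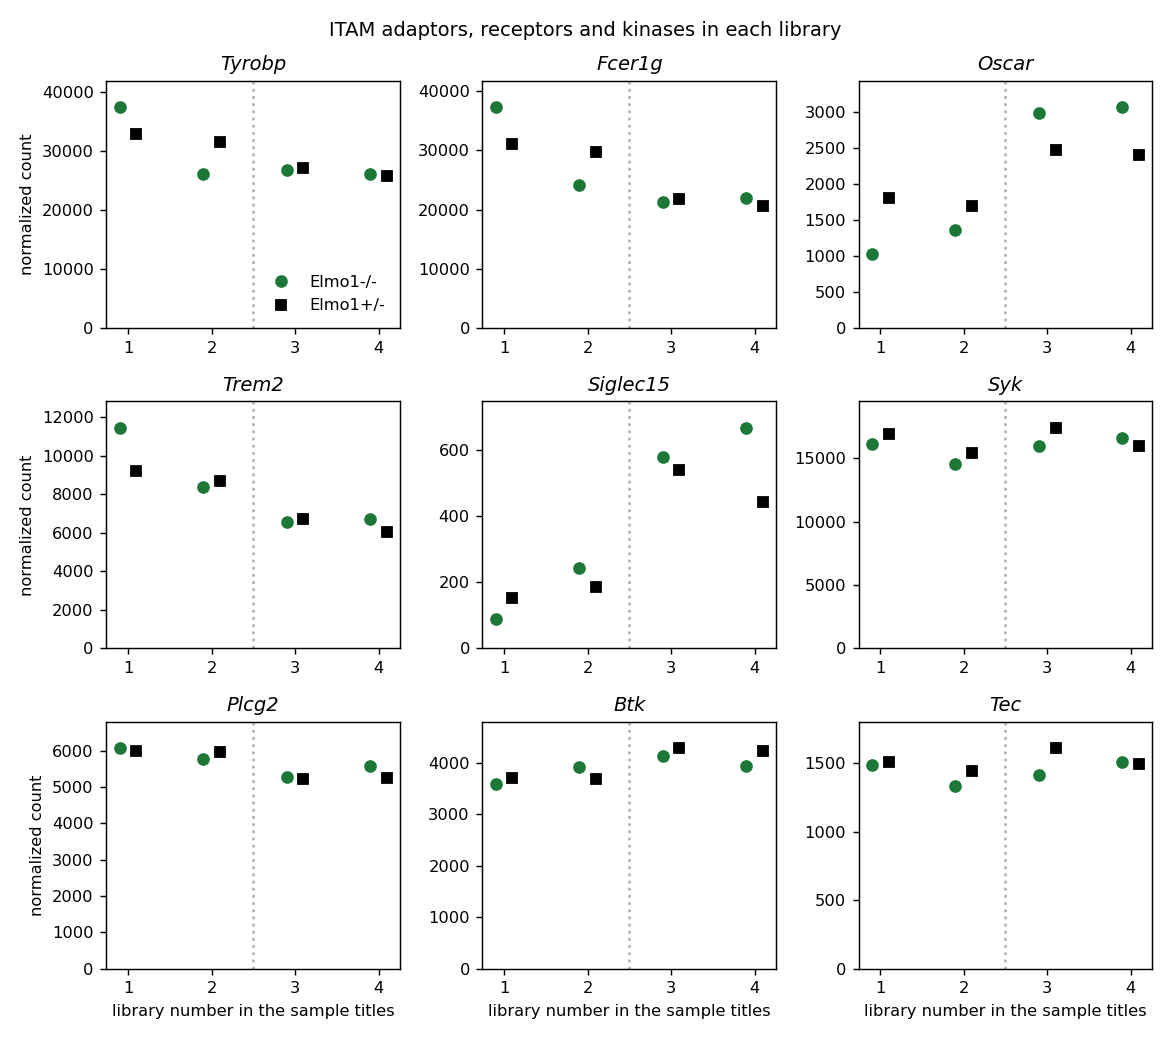
Normalized counts (vertical axes, from 0) of the 9 genes in each library, by the number in the sample titles (horizontal axes). Green circles are Elmo1-/- and black squares Elmo1+/- libraries, and a dotted line parts numbers 1 and 2 from 3 and 4. Oscar and Siglec15 step up across the line and Fcer1g and Trem2 step down, while Syk and Tec stay level.

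Across the genotype comparison, 0 of the 9 genes passed the threshold of 0.05 (limma with Benjamini-Hochberg adjustment over all tested genes, adjusted p = 1.00 for each when rounded), against a background of 0.00707% of tested genes, which is Elmo1 alone. At an unadjusted limma p under 0.05 there were also 0 of 9, where 0.941% of tested genes passed, and 0 of 9 had genotypes that did not overlap, where 0.941% of tested genes did not. Neither edgeR nor DESeq2 on the recovered reads called any of the 9. Exact permutation tests (two-sided, 70 arrangements of the libraries) gave p = 0.20 for Tec, 0.429 for Syk, and from 0.714 to 0.971 for the other 7. A p of this size does not show that the genotypes are alike. The intervals depend on the fit: with the replicate number as a block, those of Tyrobp (-0.20 to 0.16), Fcer1g (-0.20 to 0.21) and Trem2 (-0.07 to 0.26) were also narrower than without it.

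**Figure D2:**
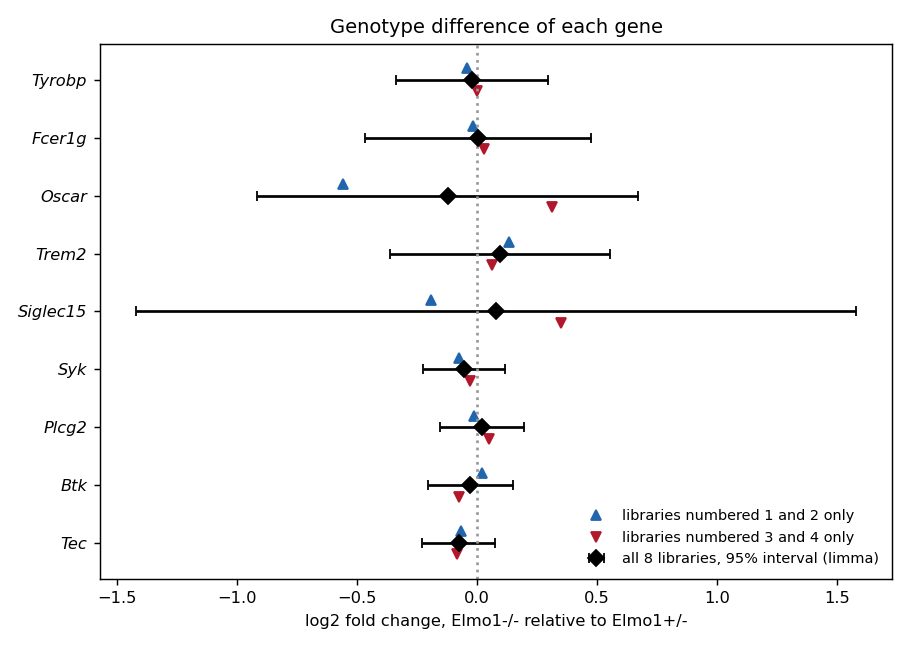
Log2 fold change of Elmo1-/- relative to Elmo1+/- (horizontal axis) for each gene. Diamonds and bars give the value and 95% interval over all 8 libraries, and triangles the difference within numbers 1 and 2 (upward) and within 3 and 4 (downward), which have no interval. All 9 bars include 0, that of Siglec15 from -1.42 to 1.58, and the triangles of Oscar, at -0.56 and 0.31, lie on opposite sides of 0.

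Variation from library to library differed widely among the 9 genes. On the log2 scale the standard deviation over the 8 libraries was 1.05 for Siglec15 and 0.56 for Oscar, which 1.07% and 8.25% of the tested genes exceeded. It was 0.32 for Fcer1g, 0.31 for Trem2 and 0.20 for Tyrobp. The lowest values, between 0.08 and 0.10, were those of Syk, Tec, Plcg2 and Btk. The 3 kinases and Plcg2 thus varied less than 83.5% or more of the tested genes.

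Between numbers 3 and 4 and numbers 1 and 2, a comparison described without a test because it was set up after the separation had been seen, 3 of the 9 genes were higher in every library numbered 3 or 4 (18.1% of tested genes were) and 3 were lower in every one (15.8% of tested genes were). With 9 genes these counts are small, and nothing is read from their size against the background. Siglec15 averaged 169 ± 64.5 (SD, n = 4) normalized counts in numbers 1 and 2 and 556 ± 93.0 (SD, n = 4) in numbers 3 and 4, a log2 difference of 1.79 or 3.45-fold. Oscar averaged 1475 ± 349 and 2731 ± 342, a log2 difference of 0.91 or 1.88-fold. Both receptors were higher in numbers 3 and 4, as were the osteoclast markers. Btk was the other gene higher in all libraries of that side, by only 0.15 on the log2 scale.

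Trem2 had averages of 9434 ± 1388 in numbers 1 and 2 and 6524 ± 324 in numbers 3 and 4, a log2 difference of -0.52, and Fcer1g 30529 ± 5379 and 21389 ± 638, a log2 difference of -0.50. Plcg2 was lower by a small amount, with a log2 difference of -0.16. Tyrobp averaged 31998 ± 4627 and 26447 ± 623, a log2 difference of -0.26, but its sides overlapped because library 2 of Elmo1-/- read 26179. Syk and Tec also overlapped, with log2 differences of 0.07 and 0.06. What the numbers stand for is not given in the sources used here, so an experiment, a culture and a sequencing run cannot be told apart.

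The levels were also read against the osteoclast markers, library by library, by their sum, which is mostly Mmp9, Ctsk and Acp5. Elmo1-/- library 1 had the lowest osteoclast marker sum (449874), the highest macrophage marker sum (256137), the lowest Oscar and Siglec15 values and the highest Tyrobp, Fcer1g and Trem2 values of the 8. In the order of rising marker sums, from Elmo1-/- 1 and 2 through Elmo1+/- 2 and 1 to Elmo1+/- 4 and 3 and Elmo1-/- 4 and 3, Oscar rose at every step but the last, from 3066 to 2982 normalized counts. Siglec15 did not follow that order among numbers 1 and 2, where its highest library was Elmo1-/- 2. Whether osteoclast content sets the level of these genes was not tested.

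Ratios of a receptor to its adaptor do not depend on how libraries are scaled. The log2 ratio of Oscar to Fcer1g lay between -5.17 and -4.10 in numbers 1 and 2 and between -3.14 and -2.84 in numbers 3 and 4, a difference of the means of 1.41. That of Siglec15 to Tyrobp differed by 2.06, with a range of 3.41 over the 8 libraries. Trem2 to Tyrobp went the other way, by -0.26. The receptors thus did not keep a fixed proportion to the adaptors. The ratio of the 2 adaptors, Tyrobp to Fcer1g, differed by 0.23. These 4 ratios separated the sides without overlap, while that of Btk to Tec differed by 0.09 and overlapped. For Oscar to Fcer1g the separation follows from the 2 genes themselves, which stood apart in opposite directions. How often other gene pairs separate the sides was not computed. The genotypes overlapped in all 5 ratios.

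**Figure D3:**
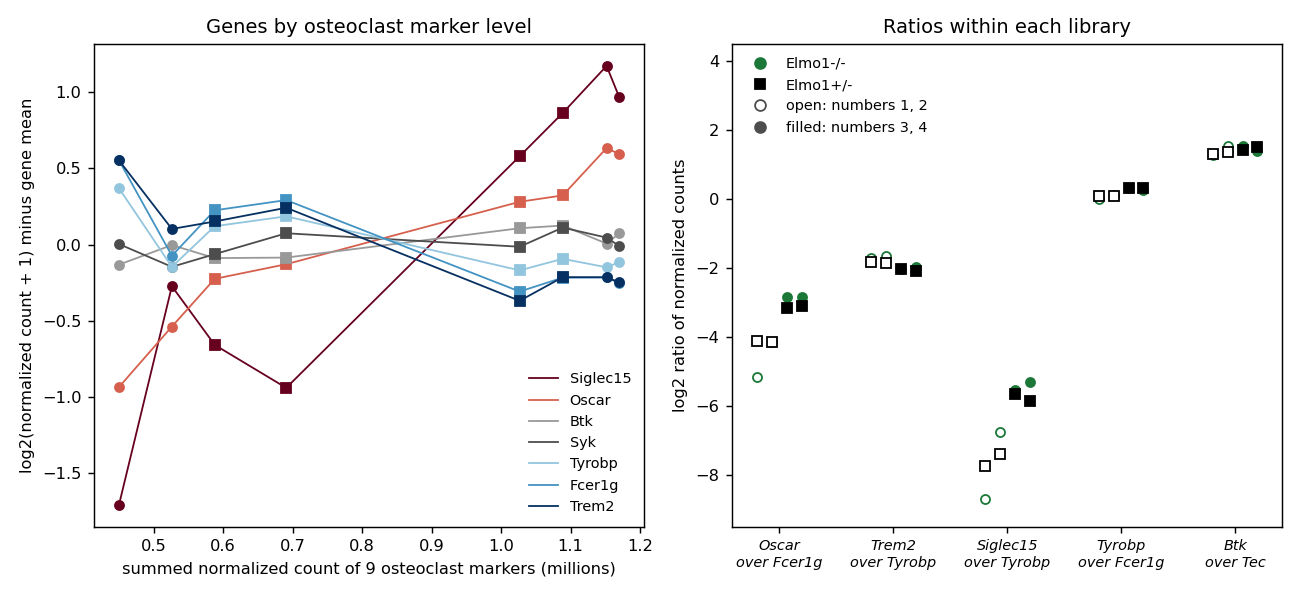
Left, log2(normalized count + 1) of 7 of the genes minus the gene's own mean (vertical axis) against the summed normalized count of 9 osteoclast markers (horizontal axis), with lines joining the 8 libraries of a gene. Right, log2 ratios of normalized counts within each library (vertical axis) for 5 gene pairs, open symbols for numbers 1 and 2 and filled ones for 3 and 4. In both, circles are Elmo1-/- and squares Elmo1+/-. Siglec15 and Oscar are lowest at the left and high at the right, Fcer1g and Trem2 the reverse, and Oscar over Fcer1g differs by 1.41 between the sides.

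The wider pathway was read from 4 lists of 78 genes, of which 76 had an identifier and 71 were tested. By genotype 0 of the 71 passed the threshold, 0 had an unadjusted p under 0.05 and 0 had genotypes that did not overlap, and edgeR and DESeq2 called 0 as well. The median log2 fold change was 0.0090 over the lists and -0.0031 over all tested genes. The values ran from -0.32 for Lat, an adaptor of T cell and mast cell receptors, to 0.41 for Fcgr1, the high-affinity IgG receptor, whose genotypes overlapped like the rest. Below the filter, Klrk1 read at most 2.39 normalized counts in any library and Siglech at most 1.20, too few reads for a comparison.

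Of 11 tested genes listed as receptors that pair with DAP12, which include the related adaptor Hcst (DAP10), 7 were lower in every library numbered 3 or 4 and 0 higher (15.8% and 18.1% of all tested genes), with a median log2 difference of -0.39, where the median of all tested genes was -0.0072. Clec5a, a C-type lectin receptor, read 4140 to 5416 normalized counts in numbers 1 and 2 and 3741 to 4096 in numbers 3 and 4. Cd300lb, an activating receptor of myeloid cells, read 3897 to 4111 and 2908 to 3123, and Pilrb2, a paired immunoglobulin-like receptor, 1348 to 2311 and 965 to 1168. All 3 are among the 7 lower genes. Trem2 and Siglec15, which also pair with DAP12 and are not counted in that list, were lower and higher. Besides Clec5a, Cd300lb and Pilrb2, the lower genes of the list were Sirpb1a, Sirpb1b, Sirpb1c and Pilrb1. The Sirpb1 and Pilrb genes are families of near-identical copies, so reads may have been split among their members. Most of the 7 lower genes belong to these families and cannot be counted as independent receptors.

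Of 12 receptors that pair with FcR-gamma, 4 were lower and 0 higher (15.8% and 18.1% of all tested genes), with a median log2 difference of -0.40. Clec4d, a C-type lectin that recognises glycolipids, read 41613 to 57109 normalized counts in numbers 1 and 2 and 34727 to 36622 in numbers 3 and 4. Clec4e (Mincle) read 25891 to 31870 and 28168 to 33885, and Clec4n (Dectin-2) 27179 to 37008 and 21437 to 28044. Of these only Clec4d separated the sides. No receptor of either list was higher in every library of numbers 3 and 4, while Oscar and Siglec15 were.

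Among the kinases and adaptors that act after the motif, 6 of 28 (21.4%) were higher and 7 (25.0%) lower in every library numbered 3 or 4, near the 18.1% and 15.8% of all tested genes, with a median log2 difference of -0.03. Pik3ap1, an adaptor of phosphoinositide 3-kinase, read 9561 to 13159 in numbers 1 and 2 and 14561 to 16773 in numbers 3 and 4. Lcp2 (SLP-76), a scaffold for phospholipase C, read 8003 to 8710 and 9096 to 9841, and Prkcd, a protein kinase C, 12847 to 14298 and 10554 to 11228. These 3 stood on both sides. Src, the kinase needed for the ruffled border of osteoclasts and named here after its values were seen, read 2351 to 3434 and 5351 to 5723, a log2 difference of 0.86. Among inhibitory receptors and phosphatases 2 of 20 were higher and 4 lower (18.1% and 15.8% of all tested genes), with a median of -0.20. Ptpn6 (SHP-1), a phosphatase that removes the tyrosine phosphates, was lower, at 14532 to 16061 and 13085 to 13376, while Sirpa, the receptor for CD47, at 61415 to 76321 and 56458 to 64208, and Pirb, an inhibitory immunoglobulin-like receptor, at 11672 to 16573 and 11261 to 12150, overlapped.

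**Figure D4:**
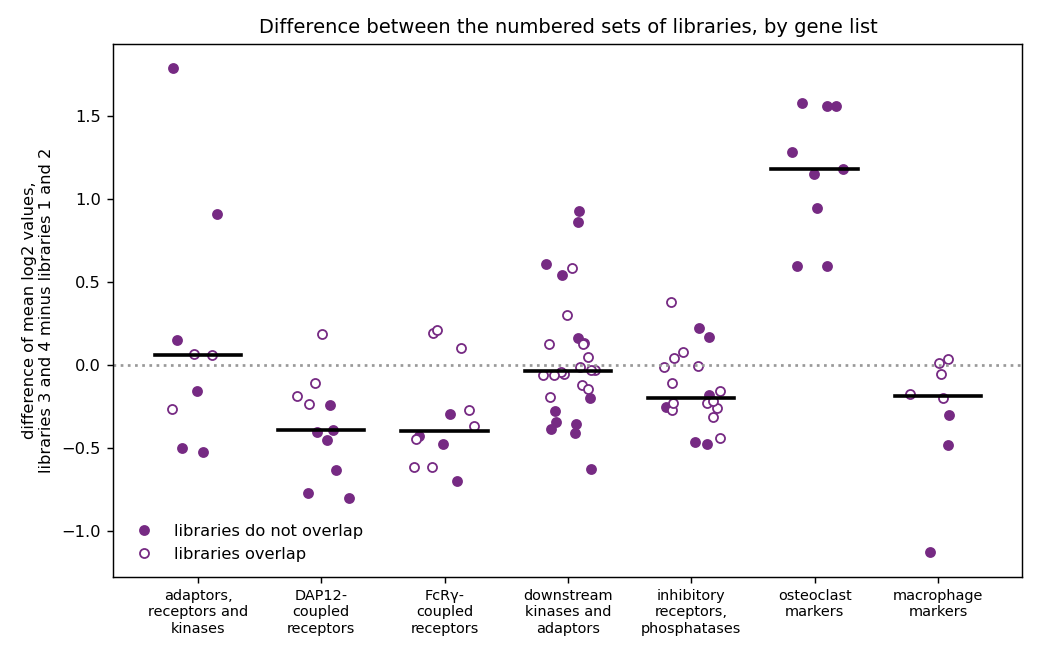
Difference of mean log2 values, libraries numbered 3 and 4 minus 1 and 2 (vertical axis), for each tested gene of 7 lists (horizontal axis). Filled points are genes whose libraries do not overlap between the sides, open points those that do, and bars are medians. The osteoclast markers lie at 0.60 or above, both receptor lists have medians near -0.40, and Siglec15 at 1.79 and Oscar at 0.91 are the highest points of the first list.

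Cells other than osteoclasts and macrophages were also read by their markers. The 7 markers of T or NK cells summed to between 2.76 and 9.14 normalized counts per library, with Cd3g, Gzma and Ncr1 at 0 in all 8 and the highest single value 7.61, for Klrb1c. Of the B cell markers Ms4a1 read at most 2.76, whereas Cd79b (157 to 409) and Ighm (92.9 to 262) were detected. Markers of T and NK cells were thus near 0 throughout, those of B cells only in part.

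Some marker lists moved with the library numbers. Mast cell and basophil markers summed to 57.5 to 75.1 in numbers 1 and 2 and 79.9 to 94.9 in numbers 3 and 4, with Cma1 at 0 in all libraries, Kit at most 21.8, and Gata2 higher in every library numbered 3 or 4 (7.57 to 26.7 and 43.8 to 54.8). The neutrophil markers summed to 13141 to 22561 in numbers 1 and 2 and 10346 to 13737 in numbers 3 and 4, mostly S100a8. The sum of the first list was thus higher in numbers 3 and 4, and that of the second overlapped. In the first list only Gata2 separated the sides, with averages of 21.1 and 48.8. Mcpt8 averaged 12.3 in numbers 1 and 2 and 7.75 in numbers 3 and 4, and Hdc 12.7 and 8.71. Cpa3 averaged 1.07 and 2.92, while Kit and Ms4a2 changed little. The rise of the sum therefore rested on Gata2 and was not shared by the list. The dendritic cell markers summed to 10654 to 24446 and 8795 to 10134, nearly all of it Bst2, while Zbtb46 went the other way (29.3 to 39.5 and 51.4 to 80.7), Xcr1 read 19.2 to 34.1 and Cd209a was at 0 in all libraries. The megakaryocyte sums overlapped (21609 to 29789, nearly all of it Pf4), but 2 of the 3 tested markers, Ppbp (log2 difference 0.63) and Gp1ba (0.90), were higher in every library numbered 3 or 4. The stromal markers (530 to 1154) overlapped. Neutrophils also use Fcer1g and Tyrobp, and the part of these cell types in the levels of the 9 genes was not tested.

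Genes whose pattern over the 8 libraries was most like that of the 3 most variable genes were found by the root-mean-square distance of log2 values after centring each gene on its own mean. For Siglec15 they were Akap6 (0.127), Gm11545 (0.128) and Nlrp10 (0.141). For Oscar they were Mst1r (0.06), Rufy4 (0.09) and Ppm1j (0.09). For Fcer1g they were Clasrp (0.02), Anxa6 (0.03) and Pla2g15 (0.04). The first 6 genes were all higher in numbers 3 and 4, Mst1r for example at 535 to 846 and 1097 to 1536 normalized counts, and the last 3 all lower. Among the 9 genes, the nearest pairs were Syk and Tec (0.03), which were both nearly level, and Fcer1g and Trem2 (0.07), although Trem2 signals through the other adaptor.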

How the data were processed

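Bulk mRNA libraries (Illumina TruSeq, NextSeq, 75 bp paired-end) of osteoclasts from 4 Elmo1-/- and 4 Elmo1+/- mice were analysed. The submitters' processing notes name FastQC, STAR, featureCounts and DESeq2, and the methods R 3.3.2; the sources used here name no genome build. The authors deposited a normalized signal, that is, read counts per gene scaled by a size factor from DESeq2 for each library. The deposited table also holds the authors' own comparison of the genotypes (mean, log2 fold change, its error, statistic, p-values), which was not used.

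Dividing by the smallest step of each library gave whole reads for 100% of values (tolerance 0.01 read). Of 46517 identifiers, 46005 matched GENCODE M21 (GRCm38) and 512 did not. Genotypes were compared with limma 3.58.1 in R 4.3.3 (empirical Bayes, robust, with a mean trend) on log2(normalized count + 1), which understates changes of low genes, without a block, with Benjamini-Hochberg adjustment over 14139 genes. Single genes were also tested by exact permutation with scipy 1.17.1. edgeR 4.0.16 and DESeq2 1.42.0 on recovered reads were alternatives. So were other scalings, filters and pseudocounts, each library left out, a replicate block, the pair of numbers as a term, and each pair of numbers alone. Scripts were tested on simulated data. These had a common dispersion and no difference between the numbers, so they do not give the power or error of the main fit here. No libraries of a genotype were copies (chi-square per gene 8.00 to 173). Same-numbered libraries deviated together from their genotype means (correlations over genes of 0.703, 0.156, 0.598 and 0.520 for numbers 1 to 4). The numbers were therefore taken to pair them, though the labels do not say what a number is. The main fit and the exact tests leave this pairing out, so differences between the numbers count in their error. An unadjusted limma p under 0.05 was found for 133 genes in the main fit and 389 with the replicate block, and for 0 of the 9 in both. P-values of the main fit set the genotype difference against the spread among cultures of a genotype, differences between the numbers included. Reads are not independent molecules, so no counting interval is given.

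The 9 genes and all lists were chosen with earlier results of these data known. The genes named were the 9, the 3 most abundant of each pathway list, any that passed the threshold or whose genotypes did not overlap, the 3 nearest in pattern to the 3 most variable of the 9, and Elmo1. Markers are named as examples, and Lat and Fcgr1 as the ends of a range, after their values were seen.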

Additional observations from a re-analysis of the deposited data

Results flagged for a closer look

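Of 20 groups of 4 libraries checked for a library far from the others, 1 was found, and chance gives about 1 in 20. It was Tyrobp, the adaptor DAP12, in Elmo1-/-: library 1 read 37405 normalized counts and the other 3 read 26123 to 26755, so that the gap took 0.944 of the range of the group, above Dixon's critical value at the 95% level for 4 values. The same library had the highest Fcer1g (37231) and Trem2 (11449) values and the lowest osteoclast marker sum (449874) of the 8. Without it the log2 fold change of Tyrobp by genotype was -0.15 in place of -0.02, and it did not pass the threshold either way.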

How the results depend on the processing

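Over the 20 alternatives none of the 9 genes and none of the pathway genes passed the threshold, and the lowest adjusted p of any of the 9 was 0.576 (Oscar). Genes called in all were 1, but 2 with DESeq2, 2 with numbers 3 and 4 alone, and between 1 and 2 with a library left out (2 without Elmo1+/- library 2). With the replicate number as a block, 1 gene and 0 of the 9 were called, and the block changed no call. Of 180 fold changes of the 9 genes under alternatives, 151 kept their direction and 29 turned, none of them past the threshold. Apart from libraries left out, 7 turned: Oscar was 0.013 with edgeR, 0.012 with DESeq2 and 0.31 in numbers 3 and 4 alone, and in numbers 1 and 2 alone Fcer1g was -0.019, Siglec15 -0.19, Plcg2 -0.013 and Btk 0.019; the cause was not tested. With each library left out in turn, log2 fold changes ran from -0.15 to 0.037 for Tyrobp, -0.18 to 0.10 for Fcer1g, -0.36 to 0.17 for Oscar, -0.073 to 0.19 for Trem2, -0.30 to 0.66 for Siglec15, -0.013 to 0.053 for Plcg2 and -0.063 to 0.011 for Btk. Syk and Tec stayed negative throughout. All 108 differences between the sides of the library numbers, computed under settings added after the data were seen, kept their direction. For genes whose sides did not overlap, leaving out a library or changing the pseudocount could not turn it, so many of these outcomes were fixed in advance. The depth limits Siglec15 most, at 95 reads in its lowest library.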
